A study of Homo sapiens with 6 samples.

Results

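The mitochondrial ribosomal protein genes were taken as the protein-coding rows of the deposited tables whose symbol starts with MRPL or MRPS followed by a digit. They numbered 78 of 46427 listed genes, 49 with an MRPL symbol, for the large subunit, and 29 with an MRPS symbol, for the small subunit. RNA was measured in 6 libraries of K562, a human erythroleukemia line of wild type genotype per its labels. Of these, 3 came from cells given 10 µM of HR-19011, a code-named compound, for 24 h, and 3 from cells given 0.1% DMSO as vehicle for 24 h. The labels give neither the DMSO content of the treated cells nor whether the 3 libraries of a group were separate cultures, so a p-value covers only the spread among these libraries, which may be a technical one. The study's title concerns HRI, a stress-activated kinase, and the question here is how transcript levels in treated cells differed from those in vehicle cells.

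Mitochondria carry their own ribosome, which translates the few respiratory chain subunits encoded by the mitochondrial genome. Its 2 large RNAs are made inside the organelle, whereas all of its proteins are encoded in the nucleus, made in the cytosol and imported. Many of these proteins descend from bacterial ribosomal proteins, and others have no bacterial counterpart and were added in the mitochondrial lineage.

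Values are FPKM, fragments counted per unit of transcript length and of library size, so that they can be set side by side between genes. The files used here hold no read counts, so the depth behind each value is unknown. A gene was tested where its mean over the 6 libraries was at least 1 FPKM, which 11856 genes and all 78 members met. A gene was called where the limma test on log2(FPKM + 1) gave a Benjamini-Hochberg adjusted p under 0.05 over all tested genes. All log2 fold changes are HR-19011 over vehicle on that scale, where low genes change by less than their FPKM ratio, and folds are ratios of mean FPKM.

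The K562 identity was checked with 8 erythroid markers, all listed, whose summed level was 4268 to 4492 FPKM in HR-19011 libraries and 9821 to 10013 FPKM in vehicle libraries. Of these 8 markers, 7 were called lower in HR-19011, where 38% of all tested genes were lower. The 8 markers of other cell types summed to 14.3 to 15.1 FPKM in HR-19011 libraries and 7.89 to 10.6 FPKM in vehicle libraries, with MS4A1 of B cells and KRT5 of epithelium listed at 0 throughout and the T cell gene CD3D at 11.9 ± 0.263 FPKM in HR-19011 and 7.40 ± 1.54 FPKM in vehicle (SD, n = 3 each). Transcripts of the mitochondrial genome took 14.2% ± 0.221 of summed FPKM in HR-19011 and 20.6% ± 0.564 in vehicle, and globin transcripts took 1.11% ± 0.0285 in HR-19011 and 2.64% ± 0.0483 in vehicle. Summed FPKM was 423885 ± 3632 in HR-19011 and 461938 ± 5487 in vehicle. The part of these shifts in the results that follow was not tested, except that fits with other scalings are given. These are bulk samples, in which fewer cells of a type and less RNA per cell cannot be told apart.

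Transcripts for the mitochondrial ribosome fell broadly. Of the 78 genes, 70 were lower in HR-19011, where 38% of all tested genes were lower, and 2 were higher, where 46.4% of all tested genes were higher. The other 6 were not called. The median log2 fold change of the 78 was -0.73, with quartiles of -1.02 and -0.43 and a range of -1.69 to 0.22, beside a median of 0.07 and quartiles of -0.38 and 0.55 over all tested genes. In 71 genes all 3 HR-19011 libraries lay below all 3 vehicle libraries, as in 38.3% of tested genes, and in 2 they lay above, as in 46.9% of tested genes. Falls with a log2 fold change of -1 or below were found in 21 members (26.9%), beside 6.45% of tested genes. Other scalings of the libraries moved the all-gene median by 0.12 (TPM), -0.13 (quantile normalization) and -0.19 (TMM over all genes above 0), and left 68 to 76 members lower.

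**Figure D1:**
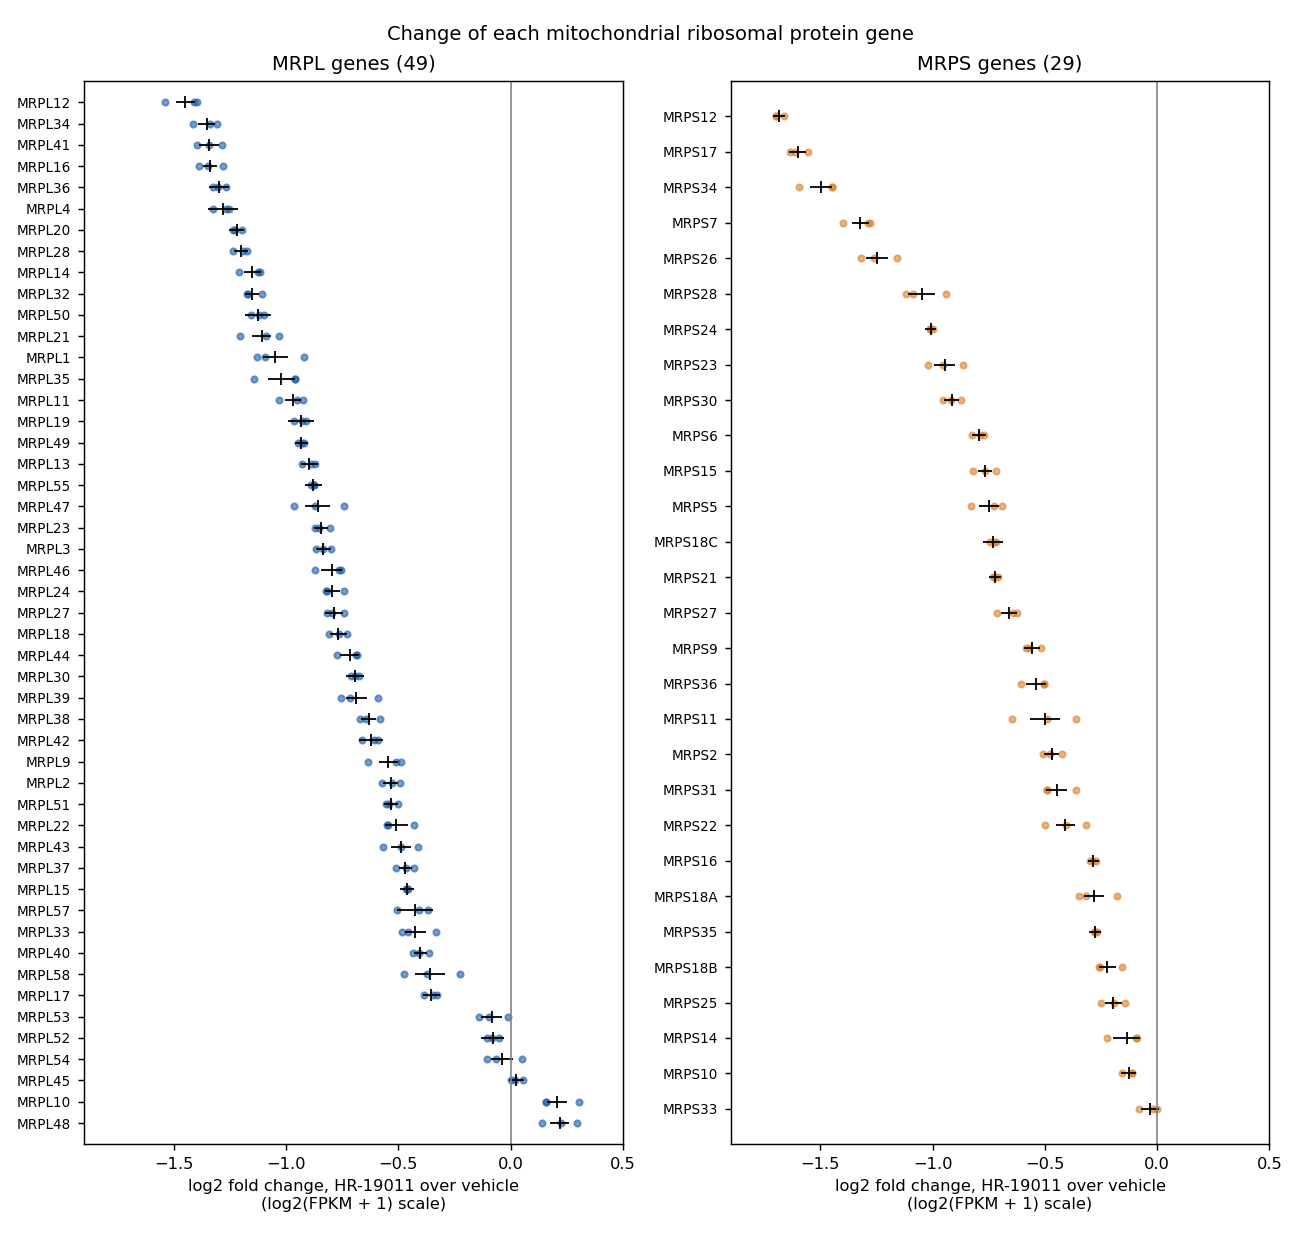
Log2 fold change, HR-19011 over vehicle on the log2(FPKM + 1) scale (x axis), for each MRPL gene (left, 49) and MRPS gene (right, 29). Points are the 3 HR-19011 libraries against the vehicle mean, ticks the fitted values and bars their standard errors from limma. Most genes lie left of 0, down to -1.45 for MRPL12 and -1.69 for MRPS12, and MRPL10 and MRPL48 lie right of it.

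Both subunits fell to a similar extent. Of 49 MRPL genes, 43 were lower, 2 higher and 4 not called, with a median log2 fold change of -0.79. Of 29 MRPS genes, 27 were lower, 0 higher and 2 not called, with a median of -0.66; limma also gave 0 higher MRPS genes at an unadjusted p under 0.05. The medians differed by -0.13, large minus small, within ranges of -1.45 to 0.22 for MRPL and -1.69 to -0.03 for MRPS genes. Falls of at least 2-fold on the log2 scale were found in 14 MRPL and 7 MRPS genes.

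The symbols do not follow the structure in every case, since MRPS30 and MRPS18A sit in the large subunit and MRPS36, now named KGD4, is known as a subunit of the α-ketoglutarate dehydrogenase complex. With the first pair moved and the last left out, 45 of 51 large-subunit genes were lower and 2 higher, and 24 of 26 small-subunit genes were lower and 0 higher. The median log2 fold change was then -0.79 for the large and -0.69 for the small subunit, a difference of -0.10 (large minus small).

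Summed over the subunit, MRPL transcripts were listed at 1566, 1574 and 1537 FPKM in the HR-19011 libraries, against 2684, 2741 and 2762 FPKM in the vehicle libraries. Summed MRPS transcripts were listed at 865, 876 and 853 FPKM in HR-19011, against 1417, 1423 and 1448 FPKM in vehicle. Neither sum overlapped between groups. The ratio of the MRPL sum to the MRPS sum was 1.80 ± 0.00650 in HR-19011 and 1.91 ± 0.0155 in vehicle (SD, n = 3 each), lower in each HR-19011 library than in any vehicle library. An exact permutation test of 3 against 3 cannot go below p = 0.1. The ratio of the subunits' median levels by symbol was 1.27 ± 0.0344 in HR-19011 and 1.27 ± 0.0337 in vehicle, so the shift in these sums was not seen in these medians. With subunits taken by structure, the ratio of medians was 1.23 ± 0.00774 in HR-19011 and 1.28 ± 0.0436 in vehicle, and the groups overlapped. Together the 78 genes took 0.572% ± 0.00331 of summed FPKM in HR-19011 and 0.900% ± 0.0117 in vehicle.

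**Figure D2:**
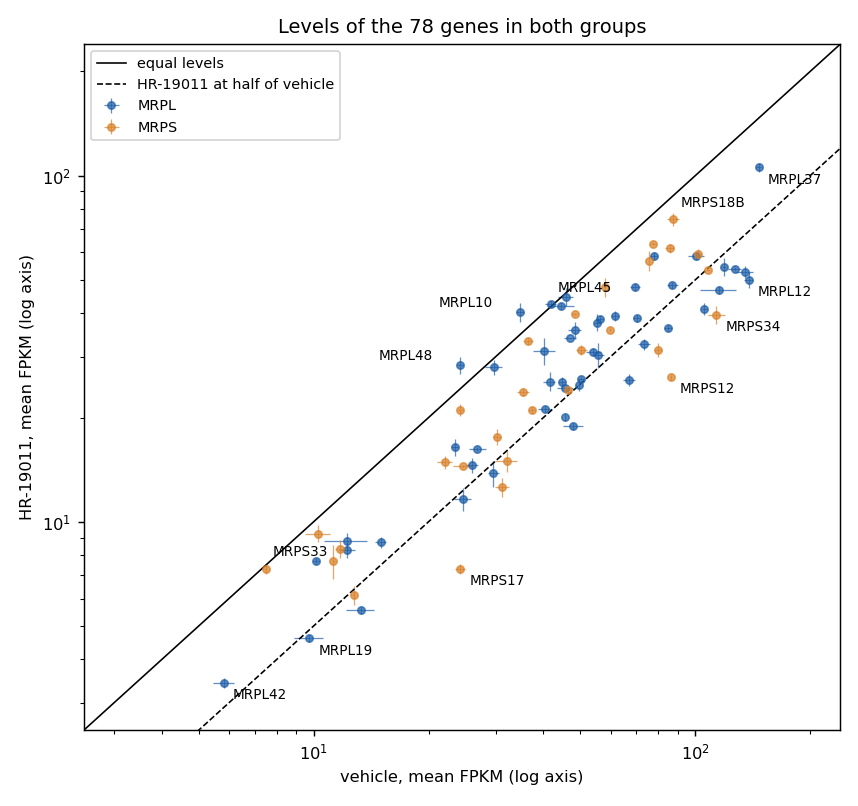
Mean FPKM in HR-19011 (y axis, log scale) against mean FPKM in vehicle (x axis, log scale) for the 78 genes, with SD bars over 3 libraries each. The solid line marks equal levels and the dashed line a ratio of 2, and MRPS12 and MRPS17 lie farthest below the dashed line while MRPL10 and MRPL48 lie farthest above the solid one.

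MRPS12, which encodes the homolog of the bacterial protein S12 at the decoding centre, showed the largest fall of the 78 on the log2 scale. It was listed at 26.6, 25.9 and 25.9 FPKM in HR-19011 libraries, against 86.4, 87.1 and 85.7 FPKM in vehicle libraries. The groups lay far apart, with little spread inside either, and the fall was 3.30-fold, with a log2 fold change of -1.69 (limma, SE 0.0268, adjusted p = 1.58e-10). MRPS12 was the 42nd most abundant member in HR-19011, against the 14th in vehicle. On GRCh38 it lies on chromosome 19 from 38930944 to 38933168. It overlaps SARS2, the mitochondrial seryl-tRNA synthetase gene on the opposite strand, which was listed at 18.7 ± 0.560 FPKM in HR-19011 and 23.6 ± 0.874 FPKM in vehicle (log2 fold change -0.33). Libraries were stranded, but the sources used here do not give whether counting used the strand, so reads of such overlapping pairs may be mixed. In all, 23 members overlap a tested gene on the opposite strand, among them MRPL11, MRPL19, MRPL32, MRPL34, MRPL37, MRPL43, MRPL47, MRPS2, MRPS7, MRPS14, MRPS16, MRPS18B, MRPS18C, MRPS22 and MRPS25, and 6 overlap one on the same strand, among them MRPS16, MRPS17 and MRPL53.

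MRPS17, a homolog of bacterial S17, was listed at 7.24, 7.58 and 7.13 FPKM in HR-19011 libraries, against 24.5, 23.4 and 24.9 FPKM in vehicle libraries. All treated values sat well under all vehicle values, with a fall of 3.31-fold and a log2 fold change of -1.60 (limma, SE 0.0395, adjusted p = 1.42e-09). It overlaps NIPSNAP2 on the same strand, so the division of reads between them is uncertain. MRPS34, a small-subunit protein with no bacterial homolog, was listed at 40.9, 41.0 and 36.8 FPKM in HR-19011, against 107, 116 and 118 FPKM in vehicle. The groups did not overlap, and the fall was 2.87-fold (log2 fold change -1.50, SE 0.0509). MRPS7, a homolog of the bacterial protein that starts assembly of the head of the small subunit, averaged 31.4 ± 1.49 FPKM in HR-19011 and 80.0 ± 1.88 FPKM in vehicle (SD, n = 3 each), 2.55-fold lower.

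Among large-subunit genes MRPL12 fell most. It encodes the L7/L12 stalk protein that recruits translation factors, and is also known to bind the mitochondrial RNA polymerase. Its values were 51.3, 51.7 and 46.9 FPKM in HR-19011 libraries, against 134, 139 and 141 FPKM in vehicle libraries. These groups were separate, 2.76-fold apart, with a log2 fold change of -1.45 (limma, SE 0.0413, adjusted p = 3.26e-09). It ranked 13th among members in HR-19011 and 2nd in vehicle.

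Next came MRPL34, MRPL41 and MRPL16. MRPL34, a homolog of bacterial L34, averaged 25.6 ± 0.998 FPKM in HR-19011 and 67.1 ± 2.47 FPKM in vehicle. MRPL41, a protein without bacterial homolog, was listed at 54.8, 50.5 and 52.5 FPKM in HR-19011, against 128, 142 and 135 FPKM in vehicle. MRPL16, a homolog of bacterial L16, averaged 41.2 ± 1.55 FPKM in HR-19011 and 106 ± 1.32 FPKM in vehicle. None of the 3 overlapped between groups, and the folds were 2.62, 2.57 and 2.57 lower in HR-19011. MRPL4, a homolog of a bacterial protein that lines the exit tunnel, was listed at 45.2, 47.6 and 47.1 FPKM in HR-19011, against 104, 113 and 129 FPKM in vehicle, 2.47-fold lower with a wider spread among vehicle libraries.

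The other members with at least a 2-fold fall on the log2 scale were MRPL36, MRPL20, MRPL28, MRPL14, MRPL32, MRPL50, MRPL21, MRPL1 and MRPL35 of the large subunit and MRPS26, MRPS28 and MRPS24 of the small subunit. MRPL36, a homolog of the smallest bacterial large-subunit protein, was listed at 18.8, 18.4 and 19.3 FPKM in HR-19011, against 45.1, 50.8 and 47.6 FPKM in vehicle. MRPL32, which in yeast and mouse is cleaved by a membrane protease before assembly, was listed at 20.6, 19.7 and 19.7 FPKM in HR-19011, against 45.5, 45.8 and 45.7 FPKM in vehicle. In both the groups stood clear of each other.

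Other members fell by less. MRPL37, a protein without bacterial homolog, was the most abundant member in both groups, at 106, 108 and 103 FPKM in HR-19011 and 144, 148 and 147 FPKM in vehicle. Its groups did not overlap, and the fall was 1.39-fold (log2 fold change -0.47, SE 0.0279). The least abundant member in both groups, MRPL42, was listed at 3.43 ± 0.112 FPKM in HR-19011 and 5.81 ± 0.365 FPKM in vehicle, and MRPL19, near the bottom of the order, at 4.60 ± 0.111 FPKM in HR-19011 and 9.73 ± 0.844 FPKM in vehicle. Levels thus spanned from 3.43 to 106 FPKM in HR-19011 and from 5.81 to 146 FPKM in vehicle. Across the 78 genes the log2 fold change had a Pearson r of -0.34 and a Spearman rho of -0.34 with the vehicle level, a description only, since the vehicle level enters both measures and genes are not independent replicates. Ranks were largely retained, with a Spearman rho of 0.879 between the levels of both groups. The Pearson r of these levels on the log2 scale was 0.914.

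MRPL58 and MRPS36, members of known separate function, also fell, as did MRPS30, MRPS22 and MRPS2. MRPL58, a peptidyl-tRNA hydrolase also called ICT1 that frees stalled ribosomes, was listed at 30.8, 34.2 and 28.6 FPKM in HR-19011, against 37.6, 40.2 and 42.9 FPKM in vehicle, 1.29-fold lower. MRPS36 (KGD4) averaged 14.9 ± 0.627 FPKM in HR-19011 and 22.0 ± 0.933 FPKM in vehicle, 1.48-fold lower. MRPS30, which sits in the large subunit, fell 1.92-fold, to 24.1 ± 0.676 FPKM in HR-19011, against 46.3 ± 1.02 FPKM in vehicle. MRPS22, mutated in inherited mitochondrial disease, averaged 56.8 ± 3.63 FPKM in HR-19011 and 75.5 ± 0.275 FPKM in vehicle, and MRPS2, a homolog of bacterial S2, averaged 61.6 ± 1.81 FPKM in HR-19011 and 85.7 ± 2.21 FPKM in vehicle. Neither of these overlapped between groups, and their folds were 1.33 and 1.39 lower.

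The 3 relatives of bacterial S18 differed in the size of their fall. MRPS18C, the one at the position of bacterial S18, was 1.71-fold lower, at 14.4 ± 0.163 FPKM in HR-19011 and 24.6 ± 1.44 FPKM in vehicle. MRPS18A, in the large subunit, was 1.22-fold lower, at 47.5 ± 3.09 FPKM in HR-19011 and 57.9 ± 0.472 FPKM in vehicle. MRPS18B, elsewhere in the small subunit, was listed at 78.3, 73.0 and 73.0 FPKM in HR-19011, against 84.6, 87.0 and 90.7 FPKM in vehicle. Its groups did not overlap, with a fold of 1.17 and a log2 fold change of -0.22, and quantile normalization ended the call (-0.075, adjusted p = 0.0850 in limma). The difference between the 3 genes was not tested. The other called falls under a log2 size of 0.3 were those of MRPS16, MRPS35, MRPS25 and MRPS10, all small-subunit genes named after their values were seen, with MRPS10 the smallest at -0.13.

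Exceptions to the fall were 8 genes, 6 MRPL and 2 MRPS. MRPL10, which anchors the L7/L12 stalk, was listed at 38.8, 43.1 and 38.8 FPKM in HR-19011 libraries, against 33.8, 35.3 and 35.1 FPKM in vehicle libraries. All HR-19011 values were above all vehicle values, by 1.16-fold, with a log2 fold change of 0.21 (limma, SE 0.0447, adjusted p = 0.00211), which turned to -0.01 under TMM scaling over all genes above 0. MRPL48, a protein of the central protuberance, was listed at 26.7, 28.4 and 29.8 FPKM in HR-19011, against 24.0, 24.6 and 23.8 FPKM in vehicle. Here too the treated values were all above the vehicle values, by 1.17-fold, with a log2 fold change of 0.22 (limma, SE 0.0423, adjusted p = 0.00105) that came to 0.01 under that scaling. MRPL10 lies on chromosome 17 from 47823272 to 47831541 and MRPL48 on chromosome 11 from 73787874 to 73865133, on GRCh38.

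MRPL45, which tethers the ribosome to the inner membrane near its exit tunnel, was listed at 42.4, 43.4 and 41.8 FPKM in HR-19011 libraries, against 40.8, 41.1 and 43.4 FPKM in vehicle libraries. The groups overlapped, and the log2 fold change of 0.03 (limma, SE 0.0335, adjusted p = 0.493) was not called, while TPM (0.15) and quantile normalization (0.17) called it higher and TMM over all genes above 0 (-0.19) lower. Its transcribed pseudogene MRPL45P2 was listed at 2.55 ± 0.188 FPKM in HR-19011 and 2.16 ± 0.146 FPKM in vehicle, and the sources used here do not say how shared reads were divided. The only other of 49 listed pseudogene and read-through rows with a mean of at least 1 FPKM was MRPS31P5, at 2.83 ± 0.0359 FPKM in HR-19011 and 1.60 ± 0.245 FPKM in vehicle, whereas MRPS31 itself was called lower (-0.45).

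The remaining 5 were not called either. MRPL54, which lies at the base of the stalk, was listed at 47.5, 42.4 and 43.7 FPKM in HR-19011, against 43.4, 47.4 and 46.6 FPKM in vehicle, with overlap. MRPL53, likewise near the stalk, was listed at 26.8, 29.4 and 27.6 FPKM in HR-19011, against 29.1, 28.5 and 31.3 FPKM in vehicle, also with overlap. MRPL52, a protein without bacterial homolog, was listed at 42.8, 42.0 and 41.2 FPKM in HR-19011, against 41.3, 48.4 and 43.9 FPKM in vehicle. The groups overlapped in MRPL52 too, and the log2 fold changes of the 3 were -0.04, -0.08 and -0.08, each of which turned positive, without a call, under TPM and quantile normalization and was called lower under both TMM scalings. MRPS33, one of the least abundant members, was listed at 7.39, 7.47 and 7.02 FPKM in HR-19011, against 7.42, 7.48 and 7.56 FPKM in vehicle, with overlapping groups and a log2 fold change of -0.03 that turned to 0.081 under TPM and was called lower under TMM and quantile normalization. MRPS14, a homolog of bacterial S14, was listed at 9.52, 8.64 and 9.55 FPKM in HR-19011, against 11.1, 9.68 and 9.95 FPKM in vehicle. Its groups did not overlap, and its log2 fold change of -0.14 (limma, SE 0.0596, adjusted p = 0.0590) lay just outside the threshold. MRPS14 was called lower in limma under TMM (-0.22, adjusted p = 0.00939), TMM over all genes above 0 (-0.34, adjusted p = 0.000588) and quantile normalization (-0.25, adjusted p = 0.00479), and stood at -0.025 under TPM (adjusted p = 0.731). At an unchanged or nearly unchanged size it was also called with equal totals without globin and mitochondrial-genome genes (adjusted p = 0.0458 in limma), among protein-coding genes alone (adjusted p = 0.0466) and with the replicate number as a block (adjusted p = 0.0324).

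**Figure D3:**
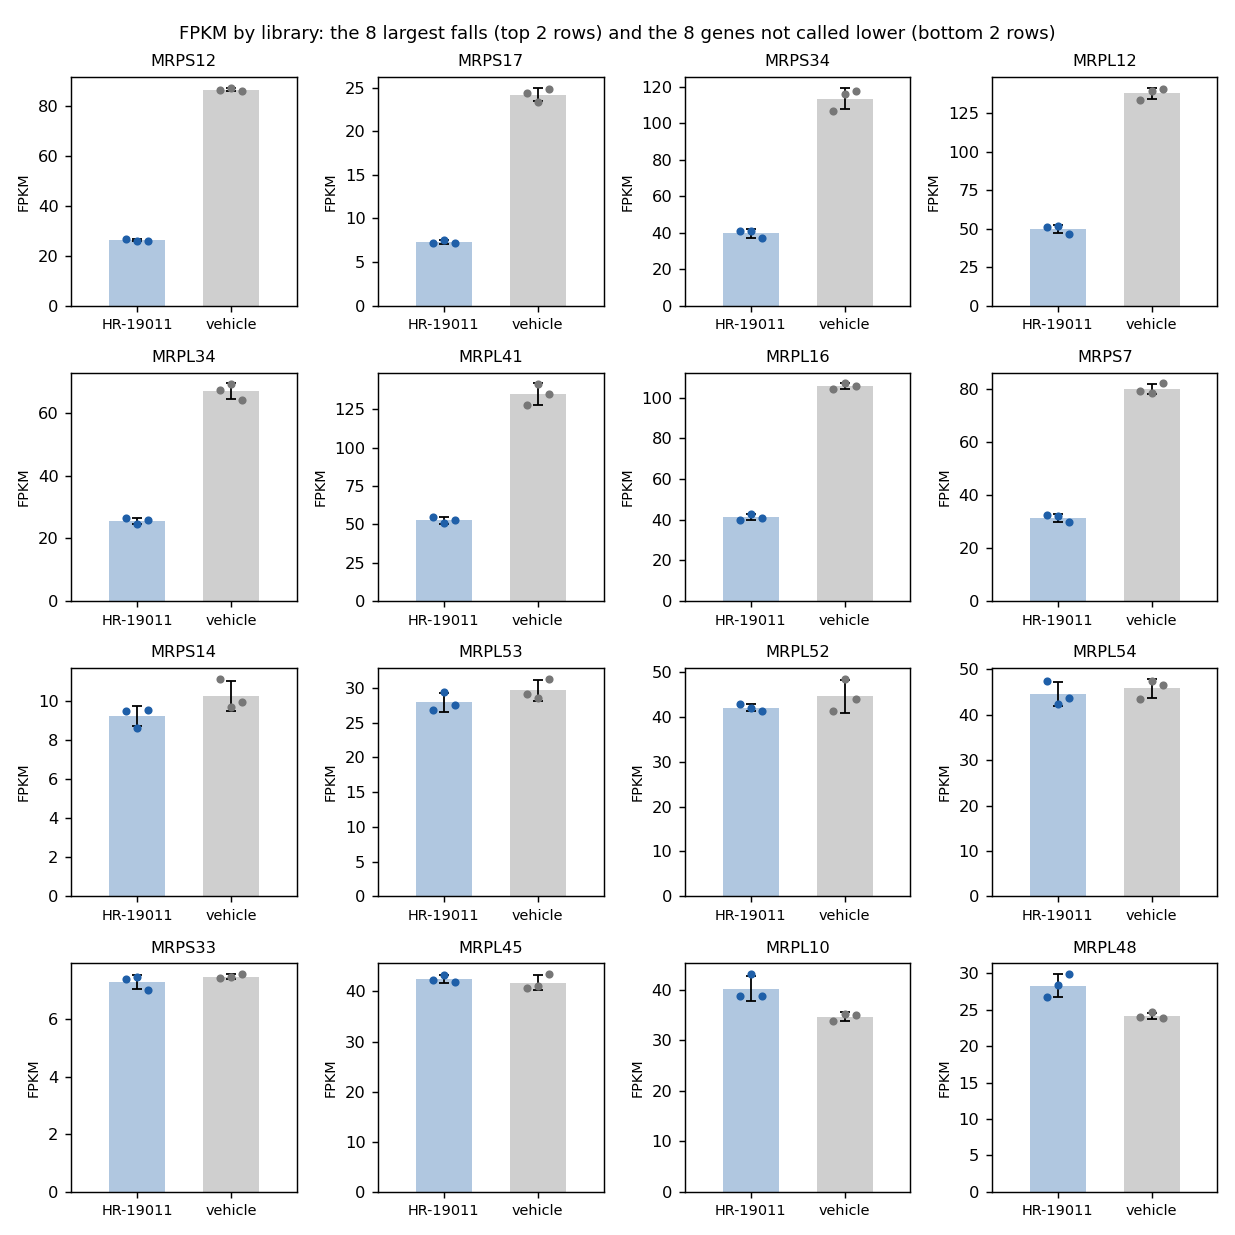
FPKM (y axis, from 0) in the 3 HR-19011 and 3 vehicle libraries (points), with group means (bars) and SD, for the 8 largest falls (upper rows) and the 8 genes not called lower (lower rows). MRPS12 sat near 26.2 in HR-19011 and 86.4 in vehicle, whereas the points of MRPL45 overlap between groups.

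The stalk region shows how members of one structure differed. Its proteins MRPL12 and MRPL11 fell 2.76-fold and 2.00-fold, MRPL53 and MRPL54 were not called, and the anchor MRPL10 was higher under FPKM as deposited. The FPKM ratio of MRPL12 to MRPL10 was 1.32, 1.20 and 1.21 in HR-19011 libraries, against 3.97, 3.95 and 4.01 in vehicle libraries. This ratio does not depend on any linear scaling of a library, and its groups did not overlap.

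Members with a bacterial homolog fell further on the median than those without. Of 46 with a homolog, 44 were lower, 1 higher and 1 not called, with a median log2 fold change of -0.84. At least 2-fold falls on the log2 scale were found in 17 of them. Of 31 mitochondrion-specific members, 25 were lower, 1 higher and 5 not called, with a median of -0.47, and 4 fell that far. This order of the medians held in each alternative fit. It was the same inside each subunit, where homologs and mitochondrion-specific members had medians of -0.89 (30 genes) and -0.49 (21 genes) in the large subunit and of -0.74 (16 genes) and -0.43 (10 genes) in the small subunit by structure. The homologs were sorted by the current family names, with MRPS36 left out, and the difference is a description without a test. By those names MRPS18A (-0.28) and MRPS18B (-0.22) were counted as mitochondrion-specific, although they are relatives of bacterial S18.

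Promoter windows are shown as examples for a pair of members that fell strongly and a pair of exceptions, because most of the 78 genes fell together. They are RefSeq sequences on GRCh38.p14, from 250 bases before to 50 bases after a gene's first listed start, for 70 of 78 members, without MRPL2, MRPL10, MRPL13, MRPL15, MRPL21, MRPL23, MRPL35 and MRPS28. Capitals mark matches on either strand. The letters searched were CCGGAAG for ETS factors such as GABP, AAGATGGC for YY1, GCGCATGC for the core bound by NRF1, CACGTG for the E-box bound by MYC and other helix-loop-helix factors, CCAAT for the box bound by NF-Y, and TGATGNAA for the composite element bound by C/EBP and ATF factors.
MRPS12, chr19:38930694-38930993, plus strand: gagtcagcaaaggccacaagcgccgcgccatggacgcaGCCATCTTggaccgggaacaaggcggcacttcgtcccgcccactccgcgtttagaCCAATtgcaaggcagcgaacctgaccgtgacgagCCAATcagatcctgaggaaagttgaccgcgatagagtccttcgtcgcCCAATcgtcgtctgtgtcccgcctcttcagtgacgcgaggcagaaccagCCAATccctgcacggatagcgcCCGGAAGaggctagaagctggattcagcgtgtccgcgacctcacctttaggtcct
MRPS34, chr16:1773085-1773384, minus strand: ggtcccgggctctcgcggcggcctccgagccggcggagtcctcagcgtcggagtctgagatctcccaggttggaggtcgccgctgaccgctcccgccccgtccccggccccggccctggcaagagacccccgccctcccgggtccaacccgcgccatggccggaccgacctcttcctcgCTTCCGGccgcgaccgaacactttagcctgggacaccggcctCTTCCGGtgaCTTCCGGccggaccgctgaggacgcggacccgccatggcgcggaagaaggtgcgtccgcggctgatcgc
MRPL45, chr17:38296918-38297217, plus strand: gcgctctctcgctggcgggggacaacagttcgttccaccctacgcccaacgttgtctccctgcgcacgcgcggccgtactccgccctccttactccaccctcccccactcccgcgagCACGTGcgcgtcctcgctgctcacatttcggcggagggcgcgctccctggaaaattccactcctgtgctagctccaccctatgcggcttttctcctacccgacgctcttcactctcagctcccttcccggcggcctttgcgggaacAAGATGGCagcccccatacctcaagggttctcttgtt
MRPL48, chr11:73787624-73787923, plus strand: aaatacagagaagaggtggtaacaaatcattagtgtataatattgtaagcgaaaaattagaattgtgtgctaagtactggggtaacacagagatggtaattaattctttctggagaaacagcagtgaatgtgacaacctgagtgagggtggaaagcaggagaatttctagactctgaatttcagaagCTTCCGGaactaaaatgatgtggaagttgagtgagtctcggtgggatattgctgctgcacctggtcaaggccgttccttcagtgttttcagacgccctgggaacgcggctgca
MRPS12 held 1 ETS match, 1 YY1 match and 4 CCAAT matches, and MRPS34 held 3 ETS matches. MRPL45 held 1 YY1 and 1 E-box match, and MRPL48 held 1 ETS match. These windows do not stand for the other falls or exceptions. Among the largest falls not shown, MRPS17 held 1 CCAAT match, and MRPL12 and MRPL34 held no match to any motif. Among exceptions not shown, MRPS33 held 1 ETS match and MRPL52 held 1 NRF1, 1 ETS and 2 YY1 matches.

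The ETS letters were found in 29 of the 70 windows (41.4%), beside 10.7% of 27305 windows of all genes and 22.0% of 8992 windows of tested genes. The YY1 letters were found in 20 windows (28.6%), beside 3.03% of all and 6.14% of tested windows. Matches to the NRF1 core numbered 6 (8.57%, beside 6.44% of tested windows), to the E-box 7 (10%, beside 10.8%), to the CCAAT box 20 (28.6%, beside 37.8%) and to the C/EBP-ATF element 1 (1.43%, beside 1.62%). The median log2 fold change was -0.53 in members with ETS letters and -0.77 in those without, and -0.73 with YY1 letters and -0.72 without. It was -0.43 with the NRF1 core and -0.74 without, and -0.54 with the E-box and -0.72 without. The order was the other way for the CCAAT box, at -0.78 with and -0.58 without. The 1 member with the C/EBP-ATF element was at -0.88, and those without had a median of -0.72. These splits were not tested. A match describes these letters in this window, not a site, and 1 window can hold several of these motifs.

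In GENCODE 29, many members start near a neighbour. Of 78 members, 29 (37.2%) had a protein-coding gene on the opposite strand with its 5′ end within 1000 bases. The share was 19.5% (1955 of 10034) among tested coding genes. The 5′ ends were the outer ends of GENCODE records, which can lie far from the RefSeq start. For MRPS22 they are 139005806 in GENCODE and 139343994 in RefSeq, and for MRPL11, 66466738 and 66438848. Their partners PRR23A (not tested) and PELI3 (log2 fold change 0.25, called higher) thus lie far from the RefSeq start. Of 24 partners tested, 13 were lower, 8 higher and 3 not called, with a median log2 fold change of -0.25. Over all tested genes 38% were lower and 46.4% higher. The lower partners include MRPL46 and MRPS11, which are members themselves. The members with a partner had a median of -0.79 and those without one of -0.69. The pairs named next were picked after their values were seen. MRPL46 and MRPS11 are each other's partner, 34 bases apart, with log2 fold changes of -0.80 and -0.50. MRPL43 was at -0.49 and TWNK, the mitochondrial DNA helicase gene, at -1.56, or 4.50 ± 0.348 FPKM in HR-19011 and 15.2 ± 0.224 FPKM in vehicle. MRPL47 was at -0.86 and the complex I subunit gene NDUFB5, 36 bases away, at 0.31.

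Genes that work with the mitochondrial ribosome fell as well. All 5 of its proteins without an MRP symbol were lower, where 38% of all tested genes were lower. Their median log2 fold change was -0.91. GADD45GIP1, a large-subunit protein, was listed at 16.1, 17.5 and 16.3 FPKM in HR-19011, against 40.6, 46.6 and 44.4 FPKM in vehicle, without overlap and 2.63-fold lower. DAP3, a GTP-binding small-subunit protein, averaged 96.4 ± 0.856 FPKM in HR-19011 and 112 ± 4.50 FPKM in vehicle, a change of -0.22 on the log2 scale (adjusted p = 0.000211 in limma) whose call quantile normalization ended (-0.052, adjusted p = 0.104). AURKAIP1, CHCHD1 and PTCD3, all of the small subunit, were at -0.91, -0.75 and -0.99.

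Of 27 assembly factors, 22 (81.5%) were lower, 3 (11.1%) higher and 2 not called, with a median of -0.74. Over all tested genes 38% were lower and 46.4% higher. MRM1, which methylates a ribose of the large ribosomal RNA, was 3.03-fold lower, at 4.94 ± 0.402 FPKM in HR-19011 and 15.0 ± 0.674 FPKM in vehicle (SD, n = 3 each). MTG1, a GTPase of large-subunit assembly, was higher, at 5.21 ± 0.400 FPKM in HR-19011 and 3.64 ± 0.0881 FPKM in vehicle. The GTPase gene NOA1 and the endonuclease gene YBEY were the other higher members, both with a log2 fold change of 0.41, and NSUN4 and METTL15, RNA methyltransferase genes, were not called; these 4 were named after their values were seen.

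Of 17 translation factors, 13 (76.5%) were lower, 3 (17.6%) higher and 1 not called, beside 38% lower and 46.4% higher over all tested genes. Their median was -0.51, and TMM scaling or quantile normalization left 1 higher. TSFM, the exchange factor that recharges the elongation factor EF-Tu, was 2.49-fold lower, at 9.96 ± 0.719 FPKM in HR-19011 and 24.8 ± 0.800 FPKM in vehicle. TUFM, which encodes EF-Tu itself, was listed at 127, 135 and 126 FPKM in HR-19011, against 235, 244 and 248 FPKM in vehicle, without overlap and 1.87-fold lower. METAP1D, a methionine aminopeptidase gene, was the highest, at 6.75 ± 0.140 FPKM in HR-19011 and 5.29 ± 0.148 FPKM in vehicle. The initiation factor gene MTIF3 (0.15) and MTRES1 (0.18), which encodes a factor that frees stalled ribosomes, were also called higher. The groups of MTRES1 overlapped (adjusted p = 0.0340 in limma). The recycling factor gene MRRF (0.21) was not called. MTIF3, MTRES1 and MRRF were named after their values were seen.

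The RNA partners of these proteins went the other way. RNR1, the small-subunit ribosomal RNA of the mitochondrial genome, was listed at 1546, 1504 and 1576 FPKM in HR-19011 libraries, against 619, 604 and 607 FPKM in vehicle libraries. RNR2, the large-subunit RNA, was listed at 5803, 5645 and 6024 FPKM in HR-19011, against 3642, 3471 and 3566 FPKM in vehicle. Neither overlapped, and the log2 fold changes were 1.34 (SE 0.0242, adjusted p = 3.10e-10 in limma) for RNR1 and 0.71 (SE 0.0293, adjusted p = 3.06e-08 in limma) for RNR2. The libraries were made from polyadenylated RNA, so these are not taken as levels of all ribosomal RNA.

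**Figure D4:**
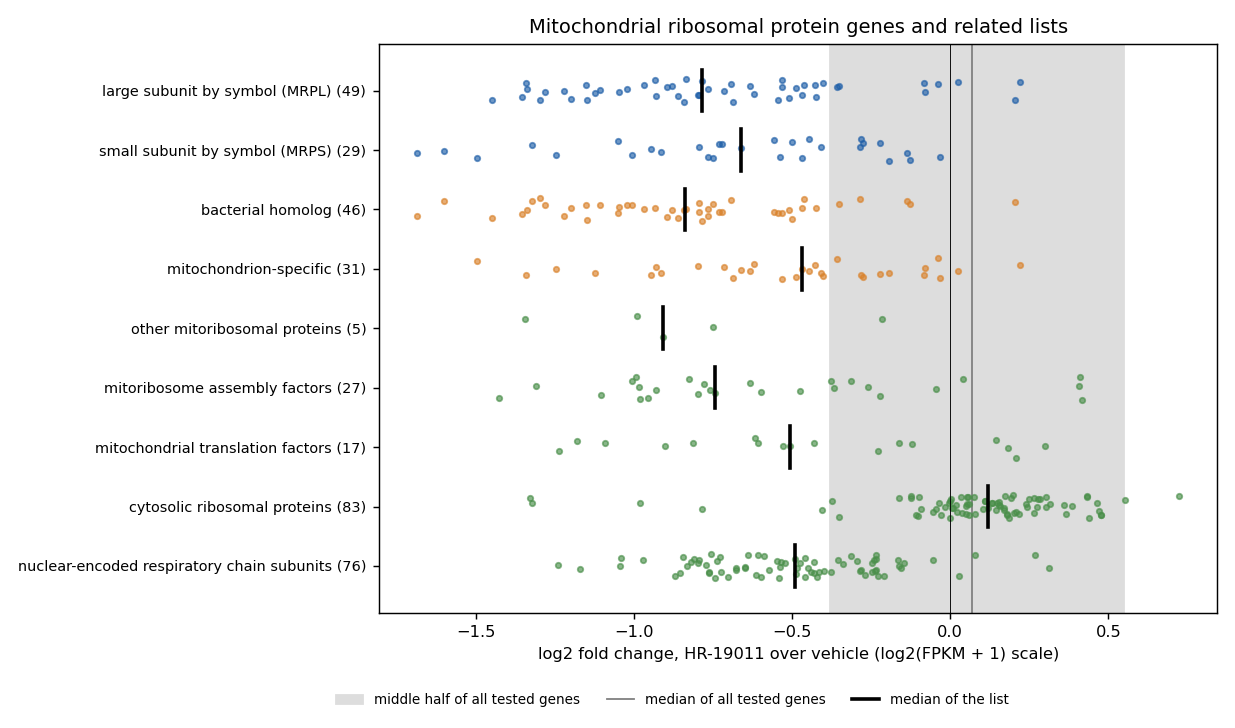
Log2 fold change, HR-19011 over vehicle on the log2(FPKM + 1) scale (x axis), of each tested gene (points) in each list (rows, number of genes in brackets), with the list's median as a black bar. The grey band spans the quartiles of all tested genes, -0.38 to 0.55, and the medians run from -0.91 for the other mitoribosomal proteins to 0.12 for the cytosolic ribosomal proteins.

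Ribosomal proteins of the cytosol differed in their counts from those of the mitochondrion. Of 83 tested cytosolic ribosomal protein genes, 14 (16.9%) were lower, 48 (57.8%) higher and 21 not called. Over all tested genes 38% were lower and 46.4% higher. The median log2 fold change was 0.12, beside 0.07 over all tested genes. It turned to -0.099 under TMM over all genes above 0, where 47 were lower and 15 higher. In that fit 49.1% of all tested genes were lower. Nuclear-encoded respiratory chain subunits were nearer to the mitochondrial ribosome in their counts. Most of them, but not SDHA, SDHB, SDHC and SDHD, belong to complexes that also hold products of that ribosome. Of 76 tested, 71 (93.4%) were lower, 2 higher and 3 not called, with a median of -0.49. Falls of at least 2-fold on the log2 scale were found in 4 (5.26%), beside 6.45% of all tested genes. No test was made between the lists.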

How the data were processed

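RNA from K562 cells was measured in 6 libraries, stranded and poly(A)-selected per the labels' protocols. Tools listed in the submitters' processing notes, without roles, are HISAT, HISAT2 2.1.0, StringTie 2.1.3b, Bowtie2, DESeq2 1.24.0, Trimmomatic 0.38 and SAMtools 1.9, with the GRCh38 build. Per the file headers, the authors deposited FPKM per gene. Groups came from the sample labels. In limma 3.58.1 (R 4.3.3), log2(FPKM + 1) of genes averaging 1 FPKM or more was fitted on group alone, with a variance trend. Tests were two-sided and moderated, and p-values were adjusted by Benjamini-Hochberg over all tested genes (threshold 0.05). The fit was tested on simulated data. Alternatives, given in the closing section, changed the pseudocount, filter, scaling (TMM, TPM, quantile, totals without globin and mitochondrial-genome genes), variance trend, replicate block, biotypes, threshold or libraries. TMM over all genes above 0 was added after seeing the data. The members and lists were chosen with earlier results of these data known. Named members are all exceptions, the 8 largest falls, the 3 highest and 3 lowest levels and 14 fixed by name, and in each list the lowest and highest called gene, with RNR1, RNR2, TUFM, DAP3 and GADD45GIP1. MTRFR is listed as C12orf65. Member positions and promoters are from RefSeq, and neighbours and overlaps are from GENCODE 29.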

Additional observations from a re-analysis of the deposited data

How the results depend on the processing

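Depth is unknown, so the precision of low members cannot be given, and only 3 libraries a group were available. In every alternative run, most members of both subunits were called lower (68 to 76 of those tested). The large-subunit median log2 fold change, -0.79 as reported, was -0.67 with a pseudocount of 5, -0.87 under TMM, -1.0 under TMM over all genes above 0, -0.67 under TPM and -0.68 under quantile normalization. The small-subunit median, -0.66 as reported, was -0.60, -0.75, -0.87, -0.55 and -0.58 under these settings in the same order, and large minus small was -0.065 with a pseudocount of 5. Large-subunit genes called higher numbered 0 under TMM over all genes above 0, where the tool was limma and MRPL10 stood at -0.0081 (adjusted p = 0.872) and MRPL48 at 0.0073 (adjusted p = 0.877). MRPL45 was -0.060 under TMM and -0.19 under TMM over all genes above 0, and was called higher under TPM (0.15) and quantile normalization (0.17). Under TPM, MRPL53 was at 0.037, MRPL52 at 0.041, MRPL54 at 0.082 and MRPS33 at 0.081. Under quantile normalization, MRPL53 was at 0.012, MRPL52 at 0.068 and MRPL54 at 0.11. The median of all tested genes, 0.07 as reported, was -0.039 with the filter at 5 FPKM, -0.0056 under TMM, -0.12 under TMM over all genes above 0 and -0.059 under quantile normalization. Higher genes made up 55.0% of called genes as reported, 49.8% under TMM, 42.2% under TMM over all genes above 0, 62.2% under TPM, 46.1% under quantile normalization, 64.4% unfiltered and 47.5% with the filter at 5 FPKM. Beyond the construction of each setting, the cause was not tested. Leaving out each library in turn gave 43 to 44 large-subunit and 27 to 28 small-subunit genes lower, medians of -0.81 to -0.77 for the large and -0.68 to -0.63 for the small subunit, and a difference of -0.16 to -0.10. It gave a call to MRPL53 without HR-19011 replicate 2 (adjusted p = 0.0456 in limma), to MRPL52 without vehicle replicate 1 (adjusted p = 0.0264) and to MRPS14 without vehicle replicate 2 (adjusted p = 0.0350). Libraries with the same number in both groups did not deviate together (r of -0.034, -0.0045 and -0.108). The values thus gave no sign of a pairing by number, but 3 libraries a group cannot exclude one. The fit with the replicate block called 71 members lower and 2 higher.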
